A study of Mus musculus with 12 samples.

Results

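Matrix metalloproteinases (MMPs) are zinc-dependent proteases that cut collagens, elastin and other proteins of the extracellular matrix, and tissue inhibitors of metalloproteinases (TIMPs) bind their active sites and block them. In the fatty and scarring liver both families are made largely by macrophages, stellate cells and myofibroblasts, with some members also made by hepatocytes. The balance between them is classically linked to whether scar matrix is laid down or removed. The 10 genes described here are 7 MMPs (Mmp2, Mmp8, Mmp12, Mmp13, Mmp14, Mmp15 and Mmp19) and 3 TIMPs (Timp1, Timp2 and Timp3), taken by gene name from the 54532 genes counted in each library.

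RNA came from the livers of male PPARγ flox/flox mice, injected at 8 weeks of age with adeno-associated virus AAV8 that drove either Cre recombinase or eGFP from the hepatocyte-specific TBG promoter. Mice given Cre are labelled PPARγ-KO and mice given eGFP are labelled wild-type. The floxed alleles and the type, promoter and dose of the virus were thus shared by all groups, and Cre was aimed at hepatocytes alone. The vectors differed in the expressed gene and in other elements, so effects of the deletion and of the vector cannot be told apart. All mice then received a fast-food diet (FFD), rich in fat, cholesterol and sugar, for 2 or 5 months, and no group without the diet was among the libraries analysed. Each of the 4 groups held 3 libraries of 16367775 to 27452284 counted reads. The labels call the 3 libraries of a group repeats and do not say that each came from a separate mouse, so the p-values measure the spread between libraries, which may in part be technical.

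Pparg, the targeted gene, was higher in the libraries labelled PPARγ-KO, at 39.3 ± 1.92 normalized CPM (reads scaled to a common library size) in wild-type and 56.3 ± 8.84 in PPARγ-KO at 2 months, and 38.4 ± 2.54 and 84.8 ± 9.05 at 5 months (SD, n = 3 each; edgeR adjusted p = 0.0309 and 2.57e-06). Reads were counted over whole genes, so the deleted exons were not measured on their own, and every direction below follows the labels. The study reports by Western blot that PPARγ protein was efficiently lost from PPARγ-KO livers at both times. That blot does not check the labels of these libraries. The 8 hepatocyte markers examined, among them Alb and Apoa1, summed to 53177 to 85325 CPM and were present in every group, as in liver. Wild-type replicate 1 at 2 months stood apart from its group over many genes. Its chi-square per gene, near 1 for counting noise alone, was 31.7 and 27.6 against the other replicates, which differed from each other by 10.3. It also had 11.1 CPM of Mmp12 against 23.0 in both other replicates. Leaving it out therefore favours a lower PPARγ-KO level for members such as Mmp12. The counts of called genes at 2 months are therefore also given without it.

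Of the 10 members, 8 have a promoter entry in RefSeq (assembly GRCm38.p6, whose chromosomes are those of mm10), while Mmp2 and Mmp19 do not. Mmp12, Mmp13 and Mmp8 are neighbours on chromosome 9, at 7344381 to 7369499, 7272514 to 7283331 and 7558456 to 7568485 of mm10. Entries span 250 bases before and 50 bases after a start site, and each was searched on both strands for TGANTCA, the site of the stress-induced factor AP-1, for TATAAA, the core of the TATA box, for GGGCGG, the GC box, and for the direct repeat of AGGTCA with 1 base between its copies, the element bound by PPAR with its partner RXR. The 250 bases before the start are shown for Mmp12 (the second of its 2 starts), Mmp13 and Timp1, because their levels lay furthest below wild-type in the libraries labelled PPARγ-KO at both times, with AP-1 matches in capitals. The Mmp12 stretch lies at chr9:7347124-7347373 in an intron of the Mmp12 transcripts that begin further upstream, the Mmp13 stretch at chr9:7272264-7272513 and the Timp1 stretch at chrX:20869916-20870165, the latter pair just before the annotated genes, all on the plus strand. Timp1 itself overlaps the opposite-strand gene Syn1 without a shared exon base.
Mmp12: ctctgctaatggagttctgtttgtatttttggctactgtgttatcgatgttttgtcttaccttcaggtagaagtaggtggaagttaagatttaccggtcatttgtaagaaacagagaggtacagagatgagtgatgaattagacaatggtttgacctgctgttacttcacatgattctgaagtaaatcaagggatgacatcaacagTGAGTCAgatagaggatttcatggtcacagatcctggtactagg
Mmp13: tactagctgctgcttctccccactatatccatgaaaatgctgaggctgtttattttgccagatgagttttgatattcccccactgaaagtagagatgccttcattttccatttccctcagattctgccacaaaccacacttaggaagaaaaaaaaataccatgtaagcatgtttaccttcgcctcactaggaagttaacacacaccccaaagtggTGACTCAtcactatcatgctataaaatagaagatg
Timp1: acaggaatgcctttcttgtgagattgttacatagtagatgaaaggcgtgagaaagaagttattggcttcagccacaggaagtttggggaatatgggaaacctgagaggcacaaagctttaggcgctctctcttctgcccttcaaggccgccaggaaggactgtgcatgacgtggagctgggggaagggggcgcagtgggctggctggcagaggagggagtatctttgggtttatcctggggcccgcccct

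Mmp13 held TGACTCA starting 35 bases before its start and TATAAA starting 16 bases before it. Mmp12 held TGAGTCA starting 44 bases before the second start and TATAAA starting at base 5 after it, while the entry of its first start held none of the 4 motifs. None of the other 6 members with an entry held the AP-1 letters, which occurred in 7.81% of all 32851 promoter entries. TATAAA occurred in 13.6% of entries and, among members, also in Mmp8. Timp1 held none of these but a GC box on the opposite strand, starting 8 bases before its start. Mmp14, Mmp15, Timp2 and Timp3 held GC boxes too, as did 35.7% of all entries, and their GC content of 56.0% to 68.7% stood above that of Mmp12 and Mmp13 (38.7% to 43.7%) and the median of all entries, 52.7%. None of the 8 members with an entry held the PPAR element, found in 0.0396% of entries. The motifs do not share letters in these windows, and a match or its absence describes only these letters.

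Levels were compared between genes per kilobase of gene length, as normalized CPM per kilobase (RPKM). The order of the genes therefore depends on the deposited lengths, such as 7237 bases for Mmp12 and 3533 for Mmp19. In CPM, Mmp12 in wild-type at 5 months (mean 56.2) lay above Mmp19 (47.6). Mmp19, a secreted protease of basement membrane and other matrix proteins, had the highest RPKM of the 10 members in all 4 groups, from a mean of 13.5 in wild-type at 5 months to 19.2 in PPARγ-KO at 2 months. It was followed by the membrane-anchored proteases Mmp15 (means of 9.10 to 12.8 RPKM) and Mmp14 (5.63 to 9.44 RPKM) and by Timp2 (5.89 to 8.43 RPKM). Libraries of Timp2 and Mmp14 overlapped in every group but PPARγ-KO at 5 months, so their order was not resolved elsewhere, and in wild-type at 5 months Mmp14 and Mmp15 overlapped too. Timp3 was the fifth at 2 months, at means of 4.87 RPKM in wild-type and 3.49 in PPARγ-KO. At 5 months Mmp12 was the fifth, at means of 7.77 and 4.53 RPKM, and in wild-type its libraries overlapped those of Timp2. Mmp2, Timp1 and Mmp13 lay lower, with overlapping libraries for most neighbours among them. Mmp8, the neutrophil collagenase, was near the limit of detection, with 0 to 12 counts per library. It did not have enough counts for a test in any comparison, so 9 of 10 members were tested in each.

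**Figure D1:**
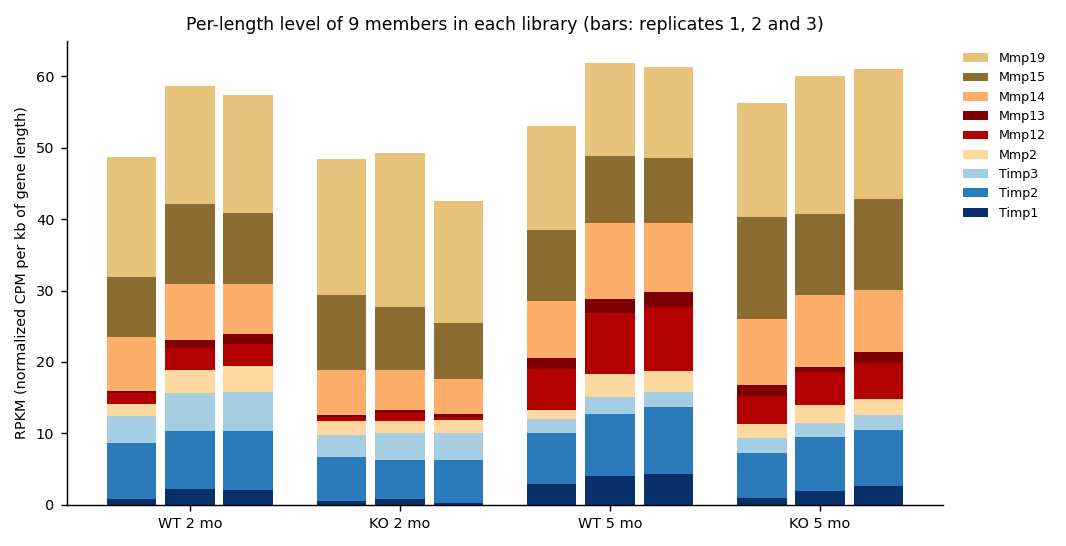
Stacked bars give the RPKM (normalized CPM per kilobase of gene length) of the 9 tested members in each of the 12 libraries, 3 per group in the order of replicates 1, 2 and 3. The 3 TIMPs, in blue, form the lower part of each bar and sum to 12.5 to 15.8 RPKM in wild-type and 9.74 to 10.0 in libraries labelled PPARγ-KO at 2 months, while the red Mmp12 segment is wider at 5 than at 2 months.

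At 2 months the libraries labelled PPARγ-KO had less mRNA of 8 of the 9 tested members than wild-type, but only Timp2 passed the test. By edgeR's quasi-likelihood F-test, adjusted over all genes by the Benjamini-Hochberg method, 1 member was called lower and 0 higher, where 1.78% of all 14573 genes tested were called lower and 3.56% in either direction. The unadjusted edgeR p was under 0.05 for 8 members. The share of all genes under 0.05 was not computed, so that count does not set the members apart. All 3 libraries labelled PPARγ-KO lay below all 3 wild-type libraries for 5 members (Mmp12, Mmp14, Timp1, Timp2 and Timp3), where 12.0% of all genes did so, and above them for Mmp19, where 12.1% did. The median log2 fold change was -0.48 over the 9 members and -0.005 over all genes. Timp1 passed the filter on low counts through wild-type, where 3 libraries reached the minimum against 1 of PPARγ-KO, and Mmp13 with 3 against 2, so for those genes a lower PPARγ-KO level was partly built in.

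Among the proteases at 2 months, Mmp12, the macrophage elastase, had 11.1, 23.0 and 23.0 CPM in wild-type and 4.24, 7.92 and 2.46 in PPARγ-KO. The groups did not overlap, and the level was 4.02-fold lower (log2 fold change -2.01, SE 0.522, edgeR adjusted p = 0.128). Mmp13, the main interstitial collagenase of rodents, had 0.655, 2.83 and 3.50 CPM in wild-type and 0.518, 0.912 and 1.23 in PPARγ-KO, with wild-type replicate 1 inside the PPARγ-KO range (log2 fold change -1.37, SE 0.581, edgeR adjusted p = 0.256). For Mmp2, the gelatinase made by stellate cells and fibroblasts, wild-type replicate 1 at 5.67 CPM lay below the PPARγ-KO libraries (5.98 to 6.83 CPM), and the others lay above at 10.9 and 12.2 (log2 fold change -0.58, SE 0.255, edgeR adjusted p = 0.260). Mmp14, which activates the Mmp2 proenzyme at the cell surface, had 41.5 to 47.2 CPM in wild-type and 29.1 to 37.9 in PPARγ-KO, without overlap (log2 fold change -0.41, SE 0.104, edgeR adjusted p = 0.0623). Mmp15, also membrane-anchored, had overlapping groups and a 95% interval of the log2 fold change from -0.41 to 0.17. Mmp19 was the only tested member with a higher mean in PPARγ-KO, at 59.9 to 76.2 CPM against 58.3 to 59.5 (log2 fold change 0.20, SE 0.0896, edgeR adjusted p = 0.258).

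All 3 inhibitors had lower means in PPARγ-KO at 2 months, without overlap between the groups. Timp2, which blocks MMPs and also takes part in Mmp2 activation by Mmp14, had 30.2, 31.8 and 32.1 CPM in wild-type and 24.1, 21.4 and 23.4 in PPARγ-KO. It fell 1.36-fold (log2 fold change -0.45, SE 0.0843, edgeR adjusted p = 0.0219). Timp1, the inducible inhibitor used as a marker of liver fibrosis, had 0.764, 1.90 and 1.88 CPM against 0.466, 0.684 and 0.260, from 7 to 37 counts per library, a 3.34-fold lower level (log2 fold change -1.74, SE 0.480, edgeR adjusted p = 0.0794). Timp3, which binds to matrix and also inhibits ADAM proteases, had 31.5, 43.1 and 44.3 CPM against 24.6, 30.5 and 30.1 (log2 fold change -0.48, SE 0.140, edgeR adjusted p = 0.102).

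The calls at 2 months turned on single libraries. Without wild-type replicate 1, 6 members were called lower, namely Timp2 (edgeR adjusted p = 0.00778), Timp3 (0.00301), Mmp2 (0.00359), Mmp13 (0.00657), Timp1 (0.0101) and Mmp14 (0.0492), and 1577 genes in all. Without any of the other 5 libraries no member was called, Timp2 then having an edgeR adjusted p of 0.0688 to 0.0885, highest without wild-type replicate 2, and 117 to 238 genes were called in all. With the replicate number as a block, 3 members were called lower: Timp2, Mmp14 (edgeR adjusted p = 0.0261) and Timp3 (0.0145). The labels do not say that same-numbered libraries belong together, so those added calls rest on an assumed pairing.

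At 5 months the pattern was split. Mmp12 and Timp1 were called lower in the libraries labelled PPARγ-KO and Mmp15 and Mmp19 higher, so 4 of 9 tested members passed the test, where 18.4% of all 14138 genes tested did (8.90% higher and 9.51% lower). The groups did not overlap for these 4 members, where 15.9% of all genes were higher and 19.0% lower without overlap. The median log2 fold change was -0.16 over the 9 members and -0.006 over all genes.

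Mmp12 had 41.6, 61.7 and 65.4 CPM in wild-type and 28.1, 33.8 and 36.5 in PPARγ-KO at 5 months, 1.71-fold lower (log2 fold change -0.77, SE 0.200, edgeR adjusted p = 0.0487). Timp1 had 2.55, 3.61 and 3.81 CPM in wild-type against 0.849, 1.69 and 2.33, 2.08-fold lower (log2 fold change -1.06, SE 0.321, edgeR adjusted p = 0.0376). In both genes the highest library labelled PPARγ-KO came close to the lowest wild-type library, replicate 1. Mmp12 lost its call without any library other than wild-type replicate 1, with an edgeR adjusted p of 0.153 without wild-type replicate 2, 0.107 without replicate 3, and 0.113, 0.135 and 0.0896 without PPARγ-KO replicates 1, 2 and 3. Timp1 lost it without wild-type replicates 2 (0.121) and 3 (0.141) or PPARγ-KO replicates 1 (0.108) and 2 (0.0797).

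The rises at 5 months were smaller and steadier. Mmp15, an anchored protease of the same type as Mmp14, had 53.6, 50.3 and 48.9 CPM in wild-type and 77.6, 61.4 and 69.1 in PPARγ-KO, a 1.37-fold rise (log2 fold change 0.46, SE 0.0828, edgeR adjusted p = 0.00200). Mmp19 had 51.6, 46.2 and 45.0 CPM against 56.4, 68.2 and 64.3, a 1.33-fold rise (log2 fold change 0.41, SE 0.0823, edgeR adjusted p = 0.00363). Both calls held in every alternative run, with adjusted p-values up to 0.0205 for Mmp15 and 0.0242 for Mmp19. The exons of Mmp19 share 789 bases with the opposite-strand gene Tmem198b, which had 43 to 96 counts against 793 to 1610 for Mmp19, and whether counting used the strand is not given in the sources used here.

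The remaining members did not pass the test at 5 months. Mmp13 had 3.97 to 5.53 CPM in wild-type and 4.39, 1.69 and 4.23 in PPARγ-KO, where replicate 2 was low (log2 fold change -0.49, SE 0.307, edgeR adjusted p = 0.323). Timp2 had 28.0 to 36.8 CPM against 24.6 to 30.7 (log2 fold change -0.21, SE 0.114, edgeR adjusted p = 0.251). For Mmp14 and Timp3 the 95% intervals of the log2 fold change ran from -0.25 to 0.21 and from -0.27 to 0.17, and for the more variable Mmp2, at 4.62 CPM in wild-type replicate 1 against 11.1 and 9.81 in the others, from -0.84 to 0.53. Without wild-type replicate 1, Mmp2 (edgeR adjusted p = 0.0383) and Timp2 (0.0408) were called lower as well.

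**Figure D2:**
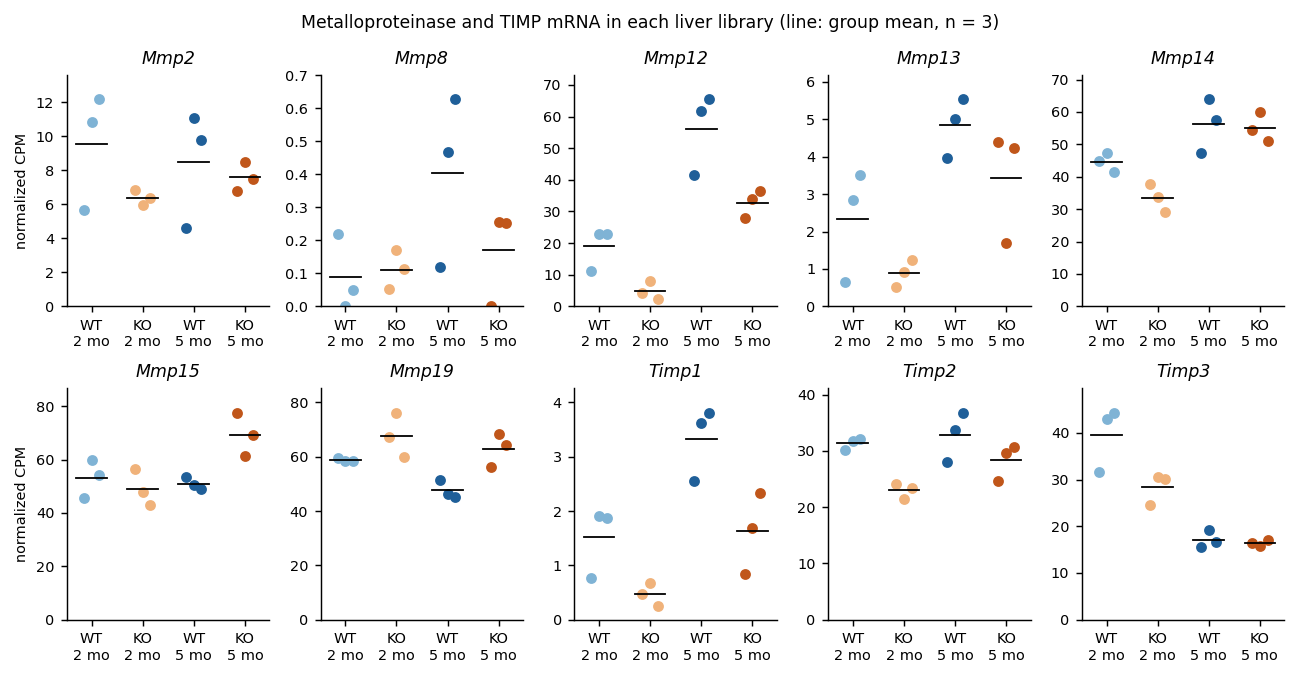
Each panel shows the normalized CPM of a member (linear axis from 0) in the 12 liver libraries, with points for libraries and a line for the mean of 3. Mmp12 and Timp1 are lower in the libraries labelled PPARγ-KO at both times and rise from 2 to 5 months, Mmp15 and Mmp19 are higher in PPARγ-KO at 5 months, and Timp3 falls with time in both genotypes.

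**Figure D3:**
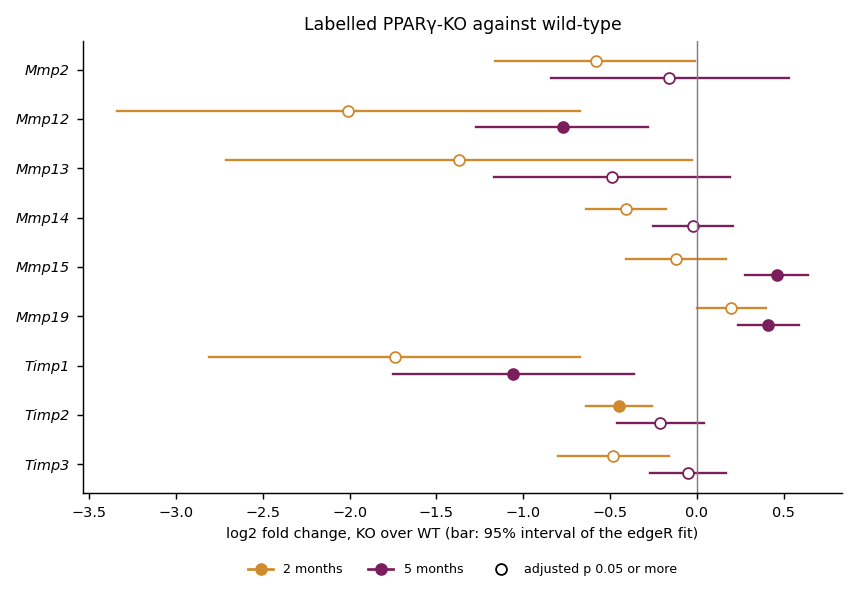
Points give the log2 fold change of libraries labelled PPARγ-KO over wild-type for the 9 tested members at 2 months (orange) and 5 months (purple), with the 95% interval of the edgeR fit, filled where the adjusted p was under 0.05. At 2 months 8 of 9 points lie below 0, and at 5 months Mmp15 (0.46) and Mmp19 (0.41) lie above it.

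Whether the difference between genotypes itself changed from 2 to 5 months was tested as an interaction in a fit of all 12 libraries. By edgeR 0 members were called, where 1.57% of the 15127 genes tested were (0.661% with a higher and 0.912% with a lower difference at 5 months), and DESeq2 called 1, Mmp15. The log2 fold change of PPARγ-KO over wild-type was higher at 5 than at 2 months for all 9 members (median difference 0.42 on the log2 scale, against -0.004 over all genes). The unadjusted edgeR p was under 0.05 for Mmp14, Mmp15 and Timp3. The share of all genes under 0.05 was not computed here either, so this does not set them apart. For Mmp15 the change was 0.56 (SE 0.165, edgeR adjusted p = 0.109, DESeq2 adjusted p = 0.0469). Without wild-type replicate 1 of the 2-month group, edgeR called Mmp15 (adjusted p = 0.0217) and Timp3 (0.0343). The interaction test did not call Mmp12 (1.24, SE 0.571, edgeR adjusted p = 0.359) or Timp1 (0.69, SE 0.605, edgeR adjusted p = 0.655), whose fold changes were larger at 2 than at 5 months.

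Over time, diet duration, age and any batch between the libraries of the 2 times cannot be told apart, and a large share of all genes differed in each genotype. In wild-type, Mmp12, Mmp14 and Timp1 rose from 2 to 5 months and Mmp19 and Timp3 fell, 5 of 9 tested members, where 46.4% of all 14491 genes were called (23.8% higher and 22.7% lower). In PPARγ-KO, Mmp12, Mmp13, Mmp14, Mmp15, Timp1 and Timp2 rose and Timp3 fell, 7 of 9, where 44.9% of 14478 genes were called (22.7% higher and 22.2% lower). The libraries of both times did not overlap for 4 members that were higher at 5 months in wild-type (Mmp12, Mmp13, Mmp14 and Timp1, where 28.7% of all genes were) and 2 that were lower (28.0% of all genes). In PPARγ-KO this held for 6 higher (28.2%) and 1 lower (27.5%). These comparisons share their libraries with those between genotypes, so the values are set side by side and are not independent.

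Mmp12 rose 2.95-fold in wild-type (log2 fold change 1.56, SE 0.344, edgeR adjusted p = 0.0175) and 6.96-fold in PPARγ-KO (2.80, SE 0.419, edgeR adjusted p = 0.00545). Every library at 5 months exceeded every library at 2 months, the lowest at 5 months being 28.1 CPM in PPARγ-KO and the highest at 2 months 23.0 in wild-type. Timp1 rose 2.18-fold in wild-type (1.13, SE 0.334, edgeR adjusted p = 0.0175) and 3.51-fold in PPARγ-KO (1.81, SE 0.469, edgeR adjusted p = 0.00873), where it passed the filter through the 5-month libraries, 3 against 1. The wild-type call of Mmp12 was lost without replicate 2 at 5 months (edgeR adjusted p = 0.0575), and that of Timp1 without replicates 2 (0.0576) or 3 (0.0694) at 5 months. Mmp13 was called in PPARγ-KO (1.91, SE 0.421, edgeR adjusted p = 0.00512) and not in wild-type (1.05, SE 0.471, edgeR adjusted p = 0.106), although the wild-type libraries of both times did not overlap. It was called in wild-type without replicates 1 (0.0422) or 3 (0.0492) at 2 months.

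Timp3 fell with time in both genotypes. It dropped 2.32-fold in wild-type, from 31.5, 43.1 and 44.3 CPM to 15.6, 19.1 and 16.6 (log2 fold change -1.21, SE 0.136, edgeR adjusted p = 7.7e-05), and 1.74-fold in PPARγ-KO, from 24.6, 30.5 and 30.1 CPM to 16.4, 15.8 and 17.1 (-0.80, SE 0.0977, edgeR adjusted p = 7.84e-05). Both falls held in every alternative run. Exons of Timp3 share 1733 bases with the opposite-strand gene Syn3, which had 17 to 65 counts against 264 to 874 for Timp3.

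Mmp14 rose in both genotypes, by 0.34 (SE 0.107, edgeR adjusted p = 0.0249) in wild-type and 0.72 (SE 0.0998, edgeR adjusted p = 0.000217) in PPARγ-KO on the log2 scale. In wild-type that call was lost without replicate 3 at 2 months (0.0902), or replicates 2 (0.103) or 3 (0.0753) at 5 months. Mmp15 rose in PPARγ-KO (0.50, SE 0.115, edgeR adjusted p = 0.00735) and had a wild-type interval of -0.28 to 0.15. Mmp19 fell in wild-type (-0.31, SE 0.0735, edgeR adjusted p = 0.00601), from 58.3 to 59.5 CPM down to 45.0 to 51.6, and its interval in PPARγ-KO was -0.33 to 0.11. Timp2 rose in PPARγ-KO (0.30, SE 0.0967, edgeR adjusted p = 0.0272), a call lost without replicate 2 at 2 months (0.0841) or replicates 2 (0.0931) or 3 (0.105) at 5 months. For Mmp2 no change with time was detected in either genotype (intervals of -1.13 to 0.80 and -0.07 to 0.56), and Mmp8 had 5 counts in all 3 wild-type libraries at 2 months and 22 at 5 months, and 7 and 9 in PPARγ-KO.

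**Figure D4:**
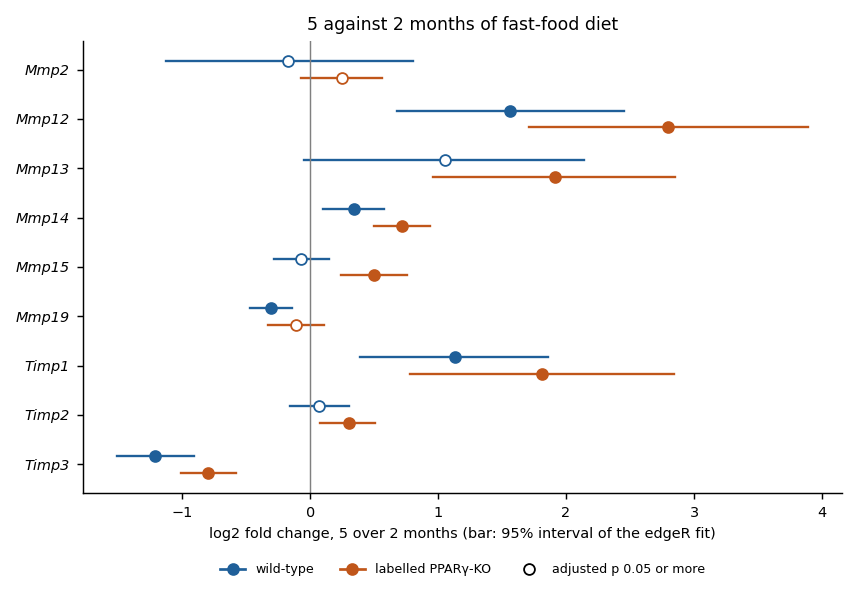
Points give the log2 fold change of 5 over 2 months of FFD for the 9 tested members in wild-type (blue) and in libraries labelled PPARγ-KO (orange), with the 95% interval of the edgeR fit, filled where the adjusted p was under 0.05. Mmp12 lies furthest to the right in both genotypes (1.56 and 2.80) and Timp3 furthest to the left (-1.21 and -0.80).

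The make-up of the families was described by shares, which rest on the same gene lengths. Of the summed RPKM of the 7 MMPs, Mmp12 gave 6.42% ± 1.90 in wild-type and 1.78% ± 0.898 in PPARγ-KO at 2 months, and 17.3% ± 3.00 and 9.41% ± 1.08 at 5 months (SD, n = 3 each). Of the summed RPKM of the 3 TIMPs, Timp1 gave 11.3% ± 3.86 and 5.34% ± 2.38 at 2 months, and 26.0% ± 1.80 and 15.9% ± 5.30 at 5 months, while Timp3 gave 33.2% ± 1.85 and 35.2% ± 3.58, then 14.8% ± 1.68 and 18.4% ± 2.86. The ratio of summed TIMP to summed MMP RPKM ran from 0.343 to 0.379 in wild-type and 0.252 to 0.308 in PPARγ-KO at 2 months, and from 0.291 to 0.345 and 0.198 to 0.260 at 5 months. Genotypes did not overlap in this mRNA ratio at either time. It says nothing of enzyme activity, and it carries no p because the genes were chosen with results of these data known.

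Markers of the cells that make these proteins moved as well. Beside the counts below, 1.78% of all genes were called lower and 1.78% higher at 2 months, and 9.51% and 8.90% at 5 months. In whole liver, fewer cells of a type and less RNA per cell cannot be told apart. Of 8 markers of monocytes and lipid-associated macrophages, 4 were called lower in PPARγ-KO and 0 higher at 2 months (Ccr2, Itgax, Trem2 and Cx3cr1), and 4 lower at 5 months (Ccr2, Itgax, Lyz2 and Gpnmb). Their summed level was 131 to 168 CPM in wild-type and 97.2 to 127 in PPARγ-KO at 2 months, and 409 to 575 and 212 to 314 at 5 months, and all 8 were detected in every group. Lyz2 made up most of these sums, at means of 94.1 and 78.7 CPM at 2 months and 359 and 164 at 5 months. Of 6 myofibroblast markers, which overlap the matrix genes below, 0 were called at 2 months and 4 lower at 5 months (Col3a1, Postn, Acta2 and Col1a1), with sums of 186 to 341 and 114 to 164 CPM, then 246 to 335 and 144 to 174. Of 6 Kupffer cell markers, Timd4 was called higher at 2 months and 5 were called lower at 5 months, with sums of 316 to 407 and 351 to 398 CPM, then 936 to 1019 and 411 to 556. Without wild-type replicate 1 at 2 months, 4 macrophage and 3 myofibroblast markers were called lower there and 2 Kupffer cell markers higher. In that fit 5.25% of all genes were called lower and 5.31% higher. Without any of the other 5 libraries 0 to 2 macrophage, 0 myofibroblast and 0 to 1 Kupffer cell markers were called. The part of these cells in the differences of Mmp12, Timp1 and the other members was not tested.

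Other cell types were checked in the same way, beside the same shares of all genes. Hepatocyte markers summed to 56145 to 69924 CPM in wild-type and 72769 to 85325 in PPARγ-KO at 2 months, and to 53177 to 57397 and 70941 to 82425 at 5 months, with 1 of 8 called higher at 2 months and 2 at 5 months. Alb made up most of these sums, at means of 44913 and 57731 CPM at 2 months and 36942 and 57050 at 5 months. The log2 fold change was below 0 for 1 of the 8 markers at 2 months and 3 at 5 months. Of 8 stellate cell markers 1 was called lower at 2 months and 2 at 5 months, with sums of 609 to 639 and 518 to 545 CPM, then 751 to 770 and 643 to 693. Neutrophil markers, of interest for Mmp8, summed to 0.931 to 7.46 CPM in all libraries, with Ly6g at 0 to 1 counts in every library. Of 8 such markers 1 was tested at 2 months, with 0 called. At 5 months 2 were tested and S100a9 was called lower (log2 fold change -1.25, edgeR adjusted p = 0.018). Of 6 sinusoidal endothelial markers 3 were called lower at 5 months, and of 6 cholangiocyte markers, 5 of them tested, 1 higher. Of 5 B and plasma cell markers 3 were tested at 5 months and 1 called lower, and of 6 T and NK cell markers 5 were tested and 0 called. None of these 4 lists had a call between genotypes at 2 months. Only 4 B and plasma cell markers and 1 T and NK cell marker were tested there, so few calls were possible. Without wild-type replicate 1, 4 hepatocyte markers were called higher at 2 months and 3 stellate cell, 1 sinusoidal endothelial and 1 cholangiocyte marker lower, against 0 to 1, 0, 0 and 0 called without any of the other 5 libraries.

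**Figure D5:**
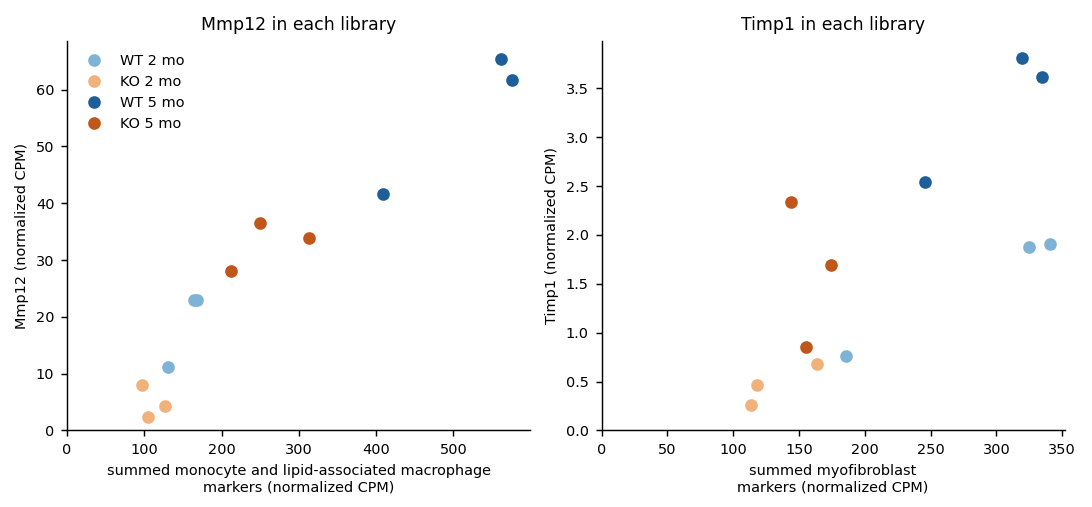
Left, Mmp12 against the summed level of 8 monocyte and lipid-associated macrophage markers, and right, Timp1 against the summed level of 6 myofibroblast markers, in normalized CPM on linear axes, with each point a library coloured by group. The group means run in the same order for Mmp12 and the macrophage markers, but within PPARγ-KO at 2 months the library with the lowest marker sum (97.2 CPM) has the most Mmp12 (7.92 CPM). Lyz2 alone averages 78.7 CPM in that group, so the sum mostly follows that gene. Wild-type replicate 1 at 2 months has 0.764 CPM of Timp1 beside a myofibroblast sum of 186 CPM, and the other replicates have 1.90 and 1.88 beside 341 and 325.

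The genes whose log2 levels followed each member most closely over the 12 libraries were listed by Pearson correlation, as a description, since the libraries share groups and the high values partly restate the group differences. Mmp12 ran with Gpnmb, a gene of lipid-laden macrophages and itself on the macrophage list (r = 0.994), and with Anxa2 (0.985). Mmp13 ran with Vcam1, a leukocyte adhesion molecule (0.954). Timp1 was followed by Elovl7 (0.966), Mgst3 (0.963) and Map4k4 (0.958), Timp2 by Mpzl1 (0.959) and Plat (0.944), and Timp3 by 1700047M11Rik (0.972). Mmp19 ran with 9630013D21Rik (0.962) and with Ces2c, a hepatic carboxylesterase (0.960), and Mmp15 with Cited4 (0.962). For Mmp2 and Mmp14 the closest genes were Slc1a5 (0.925) and Tax1bp3 (0.942).

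Few other genes of the metalloproteinase family had enough counts to test. Of 16 other MMP genes and Timp4, 5 were tested at 2 months and 6 at 5 months between genotypes, and 0 were called in either direction. The gelatinase Mmp9 had 3 to 31 counts per library, and Mmp1a, Mmp1b and Mmp20 had 0 in all. Over time Mmp27 rose in wild-type (log2 fold change 1.29, edgeR adjusted p = 0.000851) and in PPARγ-KO (1.55, edgeR adjusted p = 0.00039), and Mmp17 in wild-type (0.87, edgeR adjusted p = 0.0442).

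Genes that activate MMPs or restrain them in other ways numbered 18 tested, of which 0 were called at 2 months. At 5 months 2 of them rose and 3 fell, where 8.90% of all genes were called higher and 9.51% lower. Plau, the urokinase activator of plasminogen, which in turn activates several MMPs, was lower (log2 fold change -1.13, edgeR adjusted p = 0.00542). Mug1, a plasma protease inhibitor of the alpha-macroglobulin family, rose by 0.40 (edgeR adjusted p = 0.0033) and Furin, which activates membrane-type MMPs, by 0.32 (edgeR adjusted p = 0.00749). Over time 3 were called higher and 4 lower in wild-type and 3 and 8 in PPARγ-KO, among them Reck, a membrane-bound MMP inhibitor that fell in both (-1.16, edgeR adjusted p = 0.00149, and -1.18, edgeR adjusted p = 0.000232). Of 16 related ADAM and ADAMTS proteases, 2 were called lower at 2 months (Adamts10, -0.58, and Adamts15, -1.55) and 2 at 5 months (Adam8, -1.01, and Adam10, -0.21), with 0 higher at either time. Of all genes, 1.78% were called lower at 2 months and 9.51% at 5 months. Over time 1 rose and 3 fell in wild-type, and 4 rose and 2 fell in PPARγ-KO. The shares of all genes called over time were 23.8% higher and 22.7% lower in wild-type, and 22.7% and 22.2% in PPARγ-KO.

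The substrates of these proteases were examined next. Of 20 collagens and other matrix proteins, 3 were called lower at 2 months (Dcn, -0.34, Col6a3, -0.79, and Col6a1, -0.73) whereas at 5 months 10 were lower and 1 was higher. Of all genes tested, 1.78% were called lower at 2 months, and 9.51% lower and 8.90% higher at 5 months. The list's median was -0.74 at 2 months and -0.32 at 5 months on the log2 scale. Those with the lowest adjusted p at 5 months were Col3a1 (-0.92, edgeR adjusted p = 0.000322), Lum (-0.82, edgeR adjusted p = 0.00125), Col5a2 (-0.71, edgeR adjusted p = 0.00225) and Dcn (-0.33, edgeR adjusted p = 0.0052). The member called higher at 5 months was Fn1, a matrix protein that hepatocytes also secrete into plasma (0.27, edgeR adjusted p = 0.0258). Over time 3 substrates rose and 6 fell in wild-type, and 6 rose and 2 fell in PPARγ-KO. These counts were close to the shares of all genes called, 46.4% and 44.9%.

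Of 27 cytokines, receptors and transcription factors known to induce MMP and TIMP genes, 2 of 25 tested were called lower after 2 months, Tgfbr2 (-0.61, edgeR adjusted p = 0.0165) and the AP-1 subunit Junb (-0.64, edgeR adjusted p = 0.0315). At 5 months 8 of 24 tested were called lower and 1 higher. Of all genes, 1.78% were called lower at 2 months, and 9.51% lower and 8.90% higher at 5 months. The receptor gene Il6ra rose (log2 fold change 1.34, edgeR adjusted p = 1.08e-06), whereas Il1b (-1.43, edgeR adjusted p = 0.000986), Il1a (-0.95, edgeR adjusted p = 0.00464) and Tgfbr2 (-0.27, edgeR adjusted p = 0.00879) fell. Junb was the only gene of the list whose genotype difference changed between the times by the interaction test (0.82, edgeR adjusted p = 0.0221). Over time 5 inducers rose and 2 fell in wild-type, and 2 rose and 6 fell in PPARγ-KO. Both shares were below those of all genes called, 46.4% and 44.9%.

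These list counts at 2 months turned on single libraries as those of the members did, in fits chosen after seeing the data. Without wild-type replicate 1, 8 of 19 tested activators and other inhibitors were called higher and 2 lower, 5 of 16 ADAM and ADAMTS proteases lower, 16 of 20 substrates lower and 1 higher, and 5 of 25 inducers lower, where 5.31% of all genes tested were called higher and 5.25% lower. None of the 6 other MMP genes tested was called. Without any of the other 5 libraries 0 to 1 inducers and 0 genes of the other pathway lists were called.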

How the data were processed

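The deposited values are whole-number counts of reads per gene in 12 liver libraries, not normalized, made by the authors or their sequencing provider from reads aligned to mm10. The aligner is STAR in the study's methods and HISAT2 in the submitters' processing notes, and the counting program, annotation version and strand setting are not given in the sources used here. Gene names that a spreadsheet had turned into dates (27 of them) were restored from the gene identifier.

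Groups follow the sample labels. Library sizes were scaled by TMM, genes with low counts were removed with filterByExpr (minimum count 10), and each pair of groups was tested in a fit of its own 6 libraries with edgeR's robust quasi-likelihood F-test (two-sided), Benjamini-Hochberg adjusted over all genes, at a threshold of 0.05. The interaction used all 12 libraries, as did the TMM scaling behind CPM and RPKM, the latter with the deposited gene lengths. Genes with few counts, such as Timp1 at 7 to 73 per library, are measured less precisely. Replicates differed by more than counting noise (chi-square per gene 2.44 to 31.7, near 1 for counting alone). The value of 2.44 was that of wild-type replicates 2 and 3 at 5 months, and every other pair had at least 9.40. Replicate 1 of that group differed from them by 13.1 and 14.6.

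Same-numbered libraries of the genotypes at 2 months correlated at 0.194, 0.272 and 0.141 over 5000 genes after group means were removed. Different-numbered ones reached at most 0.0928, and the blocked fit is given there as an alternative. The labels give only repeat numbers, and with 3 libraries a group this check cannot establish a pairing. The members and gene lists were chosen with earlier results of these data known. Other genes named are Pparg, at most 4 called genes per pathway list (lowest adjusted p first), genes called in the marker lists, and up to 3 genes most correlated with each member, and some genes that this rule names are not reported here. Software was edgeR 4.0.16, DESeq2 1.42.0 and limma 3.58.1 under R 4.3.3. The tests were run on simulated data with the same spread in every gene and changes only in well-counted genes. That check does not cover genes with few counts or a wide spread, such as Timp1.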

Additional observations from a re-analysis of the deposited data

How the results depend on the processing

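Against 1 member called at 2 months (519 genes), the count was 2 with library size alone as scaling, 5 with DESeq2 (988 genes), 6 without a filter on low counts (1562), 3 with the replicate block (817) and 5 with all 12 libraries in a joint fit (1153), and 0 to 6 (117 to 1577 genes) with a library left out. At 5 months, 4 members were called (2602 genes), 2 in the joint fit, where Mmp12 (adjusted p = 0.217) and Timp1 (0.0807) lost their calls, and 2 to 6 (1593 to 3078 genes) with a library left out. Mmp12 also lost its call with library size alone (0.0533). Over time the counts were 5 in wild-type (2 to 6 with a library left out) and 7 in PPARγ-KO (6 to 7). In wild-type, library size alone ended the call of Mmp14 (0.111) and no filter that of Mmp12 (0.052), and Mmp13 was called with DESeq2 (0.0288) and no filter (0.00025). In PPARγ-KO, library size alone ended the call of Timp2 (0.0679). For the interaction, with 0 members and 238 genes, DESeq2 gave 1 member and 594 genes, no filter 1 and 793, and leaving out a library 0 to 2 and 83 to 567.

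Log2 fold changes near 0 changed sign. At 5 months the values with all libraries were -0.16 for Mmp2, -0.02 for Mmp14 and -0.05 for Timp3. With a library left out they ranged from -0.45 to 0.08, -0.13 to 0.08 and -0.11 to 0.04. Each was highest without wild-type replicate 2, and Mmp14 was also above 0 without PPARγ-KO replicate 3 (0.03). In wild-type over time the ranges were -0.43 to 0.13 for Mmp2 (highest without replicate 1 at 5 months, and 0.04 without replicate 3 at 2 months), -0.16 to 0.03 for Mmp15 (highest without replicate 2 at 2 months) and -0.02 to 0.18 for Timp2 (lowest without replicate 3 at 5 months), and library size alone gave -0.01 for Timp2. The cause was not tested.

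Library size alone shifted the split of all genes to 171 higher and 349 lower at 2 months, 889 and 1895 at 5 months, 2747 and 3871 over time in wild-type and 2744 and 3724 in PPARγ-KO, and moved the median of all genes, on the log2 scale, to between -0.093 and 0.016. No sign of pairing was found at 5 months (same-number correlations of -0.182 to -0.0542) or in PPARγ-KO over time (-0.0095 to 0.295). In wild-type over time the same-number correlations were above 0 (0.0318 to 0.216), but a different-number pair reached 0.227. The replicate block called Mmp13 in wild-type over time (0.0227) and changed no other member's call than those of Mmp14 and Timp3 at 2 months. Depth limits Mmp8, whose log2 fold change without a filter ran from -1.29 to 2.15 over the 4 pairs of groups with no adjusted p below 0.0544. Intervals cover the spread between 3 libraries a group.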
